A study of Mus musculus with 2 samples.

Results

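Interferon receptors and JAK-STAT signalling are described here through 9 genes, chosen by symbol in the gene names of the deposited count matrices: Ifnar1, Ifnar2, Ifngr1, Ifngr2, Jak1, Tyk2, Stat2, Socs1 and Socs3. They are 9 of the 32432 genes measured, and UMIs (unique molecular identifiers, 1 per captured transcript end) of all 9 were found in each of the 8 samples. The cells were live CD45-positive leukocytes sorted from B16-F10 tumours, a mouse melanoma line, and their transcripts were counted cell by cell in droplets, from 3′ ends (10x Genomics). The series title puts the question as the effect of an induced loss of TREX1, a DNA-degrading exonuclease, in host cells on the tumour's surroundings. All mice were male, 8 to 12 weeks old and carried R26CreERT2, a tamoxifen-activated Cre recombinase driven from a locus that is active in most tissues, so deletion was not limited to leukocytes. All received 1000 tumour cells in Matrigel in the skin of both legs and, from day 5, 3 daily doses of 1 mg tamoxifen; the harvest was on day 14. The iKO group was Trex1 fl/fl and the control group was Trex1 fl/wt, so control cells also carry 1 allele that Cre can remove, and the implanted tumour cells have no part in the genotype. Each group had 4 hashtagged samples. The labels do not say that each is 1 mouse, so p-values may measure technical spread. The 4 iKO samples formed 1 hashtag pool and the 4 control samples another. An effect of genotype and one of the pool cannot be told apart.

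Type I interferons bind the receptor pair encoded by Ifnar1 and Ifnar2, whose kinases TYK2 and JAK1 phosphorylate STAT proteins, STAT2 among them. STAT2 and IRF9 are subunits of ISGF3, a complex that binds interferon-stimulated response elements (ISREs) and drives antiviral genes. Interferon gamma binds the pair encoded by Ifngr1 and Ifngr2, which uses JAK1 and JAK2 and acts at gamma-activated sites (GAS). SOCS1 and SOCS3 are induced by such signals and inhibit the kinases, SOCS1 mainly downstream of interferons and SOCS3 mainly downstream of IL-6 family cytokines and G-CSF.

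The promoters of 3 members that hold a match to an ISRE or GAS core are shown. They include Stat2 and Socs1, which the largest differences between genotypes below concern. Whether these matches are bound or take part in those differences was not tested. Sequences are from RefSeq, build GRCm38.p6, read 5′ to 3′ on the gene's strand, with motif matches in capitals. The ISRE core searched was GAAA, any 2 bases, then GAAA again, and the GAS core was TTCNNNGAA, each on both strands, in the 250 bases before and 50 bases after each start site.
Stat2, chr10:128270248-128270325, plus strand: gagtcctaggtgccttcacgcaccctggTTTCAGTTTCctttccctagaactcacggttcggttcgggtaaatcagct
Socs1, chr16:10785564-10785659, minus strand: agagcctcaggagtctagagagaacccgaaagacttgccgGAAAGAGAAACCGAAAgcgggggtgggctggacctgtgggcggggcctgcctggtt
Socs3, chr11:117969472-117969560, minus strand: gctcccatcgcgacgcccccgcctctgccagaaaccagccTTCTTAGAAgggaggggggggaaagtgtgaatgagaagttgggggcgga

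All 9 members had a promoter in the RefSeq table. The ISRE core occurred in 943 of 27025 promoters (3.49%) and in 2 members, Stat2, where it lies on the opposite strand and starts 222 bases before the start site, and Socs1, where 2 overlapping matches start 83 and 77 bases before it. The GAS core occurred in 2288 promoters (8.47%) and in 3 members, Socs3, Ifnar1 and Ifnar2. Neither core was present in the windows of Jak1, Tyk2, Ifngr1 and Ifngr2. A match describes the letters only. Ifnar2, Ifnar1 and Ifngr2 start within 174 kb of one another on chromosome 16 in this build, all on the plus strand, whereas Ifngr1 lies on chromosome 10.

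After removal of 1241 barcodes of low quality and 438 likely doublets, 22052 of 23731 barcodes were kept. Before filtering, cells of iKO samples had medians of 12535.5 to 14221 UMIs and those of control samples 5794 to 11490, and kept totals ran from 16605777 to 90194260 UMIs per sample. Trex1 had 2 UMIs in control sample 2 and 0 in every other sample, too few to check the labels. Cells were assigned to 11 leukocyte classes by marker genes, each written "X-like", and 4 clusters of 2326 cells stayed unnamed. The labels call the cells lymphocytes, yet monocyte/macrophage-like cells made up 23.0% to 49.2% of kept cells per sample. iKO samples 1 and 2 stand apart from the other iKO samples in composition: CD8 T-like cells made up 32.1% and 42.3% of their kept cells, against 9.81% and 8.33% in iKO samples 3 and 4 and 2.73% to 20.3% in control. In all, 45 barcodes were shared between matrices of different pools and 0 between matrices of the same pool. Below, CPM is a gene's UMIs per 1000000 UMIs summed over the cells of 1 class in 1 sample, given for at least 20 cells, and a level is compared only between samples or classes for the same gene.

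The ligands were read first. Ifng, the interferon gamma gene, had 55650 UMIs in iKO and 6018 in control, of which 53374 and 5010 came from CD8 T-like cells. In whole samples Ifng stood at 362 and 355 CPM in iKO samples 1 and 2 and at 30.8 and 25.6 CPM in iKO samples 3 and 4. The control samples held 152, 56.4, 39.0 and 15.7 CPM. The iKO group thus held both the highest and some of the lowest values, and the groups overlapped. Within CD8 T-like cells alone the same order held among iKO samples, at 846, 701, 243 and 222 CPM, against 521, 328, 349 and 233 CPM in control.

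**Figure D1:**
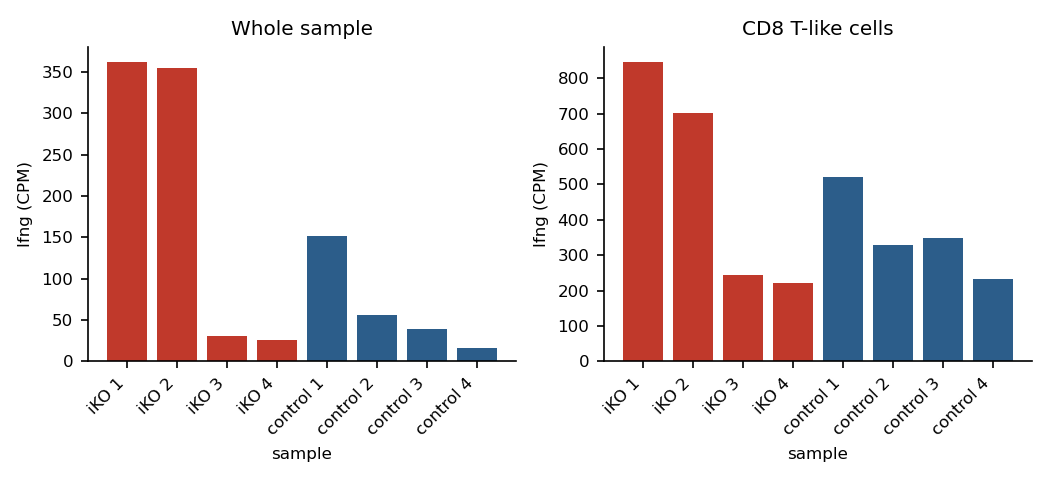
Ifng level in CPM (vertical axis) in each hashtagged sample (horizontal axis; red, iKO; blue, control), over all kept cells on the left and over CD8 T-like cells on the right. iKO samples 1 and 2, at 362 and 355 CPM over all cells, stand above the other 6 samples, while iKO samples 3 and 4 lie within the control range over all cells.

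Type I interferon transcripts were scarce. Ifnb1 had 164 UMIs in iKO and 109 in control, of which 126 and 103 came from monocyte/macrophage-like cells. In iKO sample 3, 29 of its 31 Ifnb1 UMIs came from mature DC-like cells, which held 1 UMI in all control samples together and 0 in the other 3 iKO samples. Ifna1, Ifna2 and Ifna4 had 3, 5 and 11 UMIs in iKO and 0 in control. Counts this low do not allow a comparison of genotypes. edgeR's quasi-likelihood test called neither Ifng nor Ifnb1 in any profile in which it was tested.

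The members differed widely in where they were expressed. Each was ordered over the 11 classes by its mean log2(CPM + 1) over samples of both genotypes, and neighbours in the order were compared by an exact sign-flip permutation test over the samples that held both classes. After Benjamini-Hochberg adjustment over the 90 neighbour pairs none passed 0.05 (smallest adjusted p = 0.0781). Unadjusted, 17 pairs were under 0.05. With 8 samples the smallest p this test can give is 0.00781, so the order below is a description, and only the steps in which all 8 samples agreed are pointed out.

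**Figure D2:**
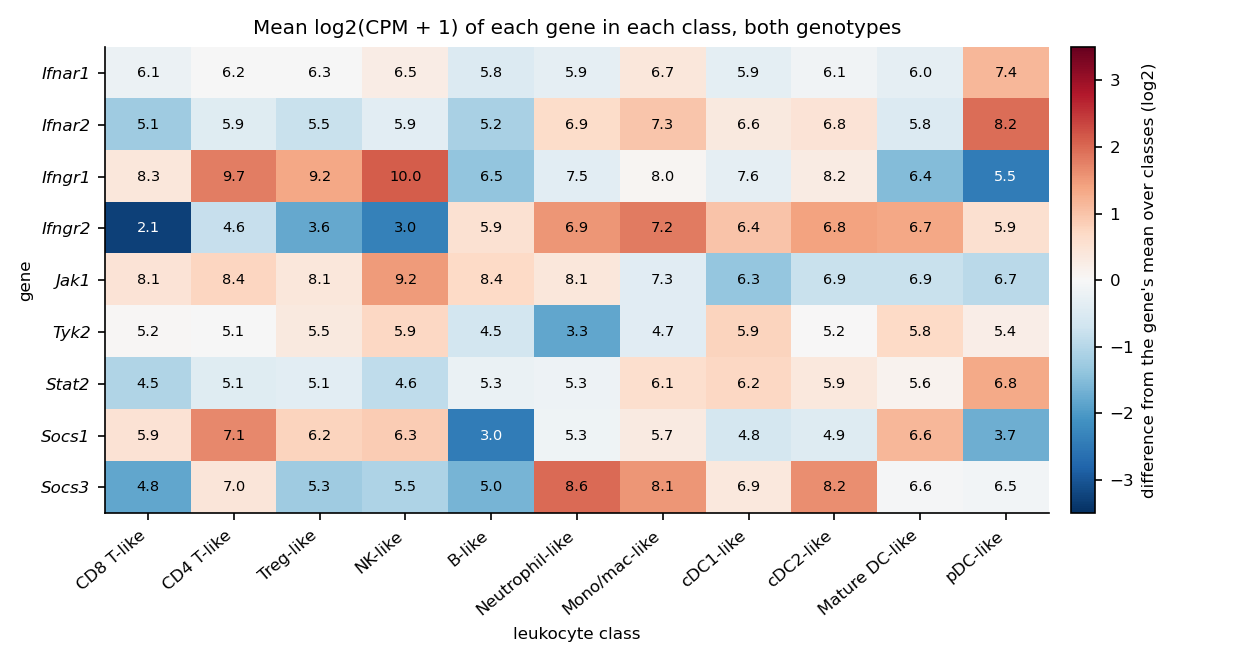
Each row is a gene and each column a leukocyte class; the printed value is the mean log2(CPM + 1) over the samples with at least 20 cells, and the colour is its difference from that gene's own mean over classes. Ifngr1 is highest and Ifngr2 lowest in the T and NK classes, Ifnar2 is highest in pDC-like cells, and Socs3 is highest in neutrophil-like, cDC2-like and monocyte/macrophage-like cells.

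Ifnar1 and Ifnar2, the type I receptor chains, were both highest in pDC-like cells, the class named for plasmacytoid dendritic cells. Ifnar1 stood there at 175 ± 36.2 CPM (SD, n = 5) and next in monocyte/macrophage-like cells at 100.4 ± 7.21 CPM (SD, n = 8). The other classes lay in a narrow band for Ifnar1, from 56.3 ± 13.2 CPM in B-like to 91.0 ± 2.39 CPM in NK-like cells (n = 8 and 3). Ifnar2 spanned a wider range. It stood at 306 ± 56.9 CPM in pDC-like cells (n = 5), 154 ± 20.4 in monocyte/macrophage-like, 125 ± 30.6 in neutrophil-like and 108 ± 8.70 in cDC2-like cells (n = 8 each). Its lowest classes were B-like cells at 37.2 ± 13.7 CPM and CD8 T-like cells at 34.5 ± 14.5 CPM (n = 8 each).

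Of the 2 interferon gamma receptor chains, Ifngr1 ranked highest and Ifngr2 lowest in the T and NK classes, in means over both genotypes. For Ifngr1 the CD8 T-like cells were close to cDC2-like cells, at 295 ± 66.2 CPM (SD, n = 8), and exceeded them in 5 of 8 samples. In control alone they averaged 290 CPM, under cDC2-like (343 CPM) and monocyte/macrophage-like cells (298 CPM). Among the T classes both receptor chains followed the same order, from CD4 T-like to Treg-like to CD8 T-like cells. Ifngr1, the ligand-binding chain, was highest in NK-like cells at 1065 ± 360 CPM (n = 3), followed by CD4 T-like cells at 840.0 ± 132, Treg-like cells at 621 ± 146 and CD8 T-like cells at 322 ± 71.8 CPM (SD, n = 8 each). The 2 iKO profiles of NK-like cells held 844 and 870 CPM of Ifngr1 and the only control profile 1481 CPM. Treg-like exceeded CD8 T-like cells in 8 of 8 samples, and neutrophil-like cells, at 188 ± 33.4 CPM, exceeded B-like cells, at 94.9 ± 26.2 CPM, in 8 of 8. Ifngr2, the signalling chain, was highest in monocyte/macrophage-like cells at 147 ± 18.6 CPM, then in neutrophil-like at 122 ± 22.3, cDC2-like at 109.9 ± 9.82 and mature DC-like cells at 106 ± 14.7 CPM (n = 8 each). It was low in the T classes, at 24.8 ± 11.2 CPM in CD4 T-like, 12.5 ± 8.10 in Treg-like and 3.51 ± 1.63 in CD8 T-like (n = 8 each). B-like cells, at 59.7 ± 10.3 CPM, exceeded CD4 T-like cells in 8 of 8 samples. Over 80 profiles of class and sample the 2 genes correlated at Pearson r = -0.49, which describes these profiles and carries no test, since profiles share samples and depth.

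That low Ifngr2 level in CD8 T-like cells rests on 222 UMIs over 8 samples. The 10 monocyte/macrophage markers, Ly6c2 and Ccr2 among them, summed to 1213 to 1382 CPM in the iKO and 477 to 642 CPM in the control profiles of this class. Whether T cells themselves made part of these transcripts was not tested. Among monocyte/macrophage-like profiles they summed to 15396 to 16966 and 12788 to 19491 CPM. How much of the Ifngr2 signal in T cells comes with that of other cells was not tested.

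**Figure D3:**
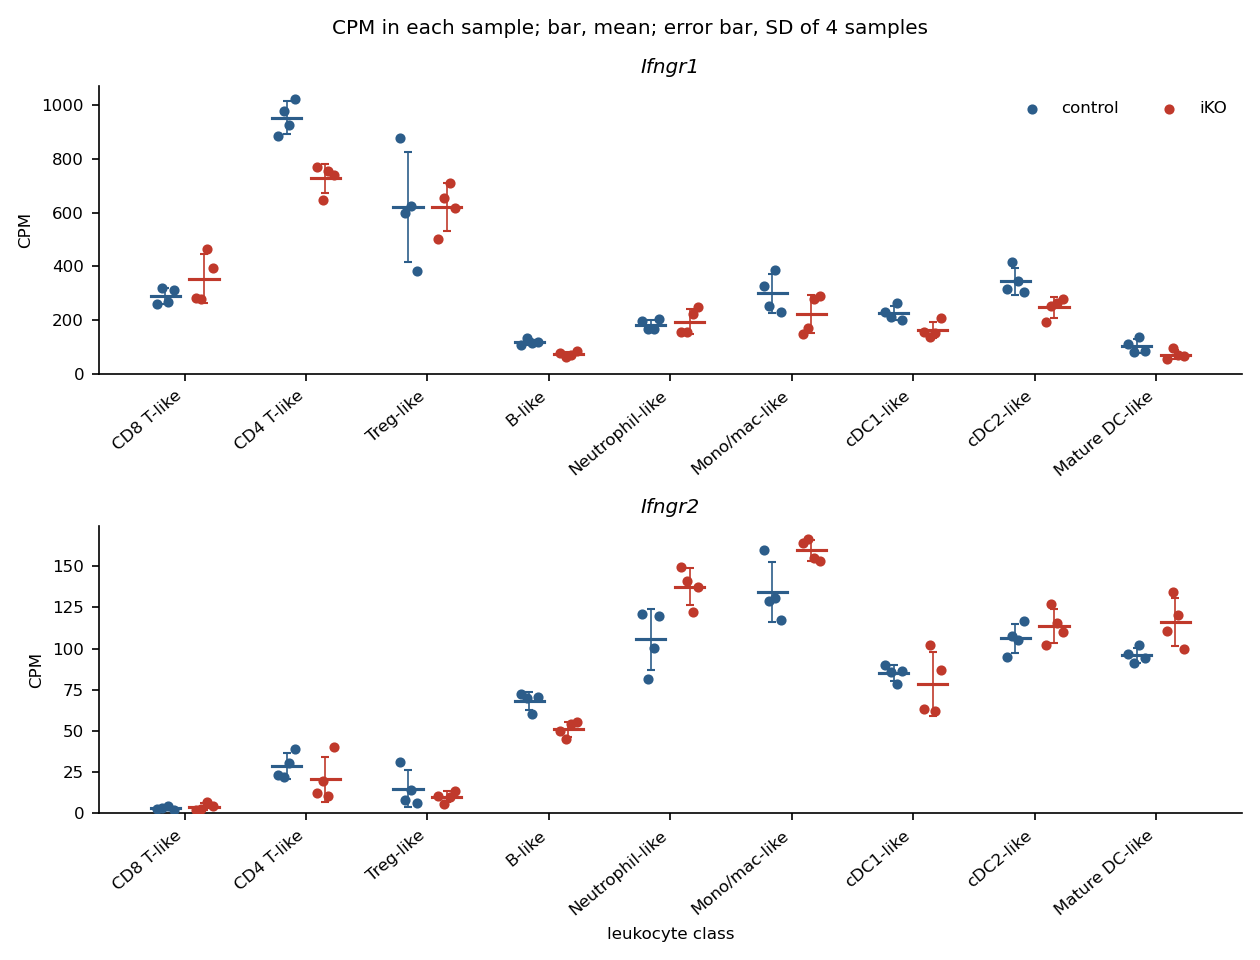
CPM of Ifngr1 (top) and Ifngr2 (bottom) in each of the 4 samples per genotype (points; blue, control; red, iKO) by class; bars are means and error bars SD of 4 samples. Ifngr1 in CD4 T-like cells lies between 884 and 1023 CPM in control and between 647 and 769 CPM in iKO, and Ifngr2 in CD8 T-like cells lies between 2.09 and 6.90 CPM.

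Jak1, the kinase shared by both receptors, was highest in NK-like cells at 631 ± 347 CPM (SD, n = 3). The 2 iKO profiles of that class held 400 and 464 CPM and the only control profile 1030 CPM. Jak1 stood at 349 ± 35.9 CPM in CD4 T-like, 335 ± 49.1 in B-like, 284 ± 36.6 in CD8 T-like, 272 ± 33.8 in Treg-like and 272 ± 36.7 in neutrophil-like cells (SD, n = 8 each). It then stepped down to 155 ± 8.56 CPM in monocyte/macrophage-like and 120.4 ± 19.9 CPM in mature DC-like cells, each step in 8 of 8 samples, and was lowest in cDC1-like cells at 80.6 ± 15.5 CPM. Tyk2, the partner kinase of the type I receptor, had similar means in 3 classes. These were 59.8 ± 11.2 CPM in cDC1-like (n = 8), 58.0 ± 13.3 in NK-like (n = 3) and 56.7 ± 7.50 in mature DC-like cells (n = 8). In the 3 samples that held both, cDC1-like exceeded NK-like cells in 1. The lowest level of Tyk2 was 9.63 ± 3.67 CPM in neutrophil-like cells (n = 8), which lay under B-like cells in 8 of 8 samples.

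Stat2, the ISGF3 subunit, was lowest in CD8 T-like cells at 21.7 ± 5.73 CPM (n = 8). Over all samples pDC-like cells ranked highest at 115 ± 22.9 CPM, but their 5 profiles are 4 iKO and 1 control. Within iKO, Stat2 stood at 121 ± 20.8 CPM in pDC-like and 121 ± 51.1 CPM in monocyte/macrophage-like cells (SD, n = 4 each), and the only control pDC-like profile held 89.2 CPM. Socs1 was highest in CD4 T-like cells at 139 ± 36.7 CPM and lowest in B-like cells at 12.7 ± 12.6 CPM (n = 8 each). Socs3 was highest in neutrophil-like cells at 391.5 ± 94.8 CPM, followed by cDC2-like cells at 296 ± 37.2 and monocyte/macrophage-like cells at 281 ± 50.9 CPM. The step from monocyte/macrophage-like down to CD4 T-like cells, at 131 ± 28.4 CPM, was seen in 8 of 8 samples, and CD8 T-like cells were lowest at 28.2 ± 10.6 CPM (n = 8 each).

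Genotypes were compared with edgeR's quasi-likelihood test on summed UMIs, with Benjamini-Hochberg adjustment over all genes of a profile and a threshold of 0.05. In whole samples 1 of 9 members was called, Stat2, where 2.53% of the 13459 tested genes were called in either direction. In class profiles 6 of 75 tests of a member were called: 2 in CD4 T-like cells, Ifngr1 and Socs1, and Stat2 alone in the CD8 T-like, monocyte/macrophage-like, neutrophil-like and Treg-like classes. The share of all tested genes called was 3.22% in CD4 T-like, 5.92% in CD8 T-like, 13.8% in monocyte/macrophage-like, 1.55% in neutrophil-like and 1.80% in Treg-like profiles. No member was called in B-like (3.68% of genes called), cDC1-like (1.73%), cDC2-like (1.12%) or mature DC-like profiles (0.0983%). There 1, 2, 3 and 4 members had an unadjusted p under 0.05. So did 459 of 3150, 976 of 6997, 1513 of 8893 and 911 of 7123 tested genes in these profiles. Only 4 members passed the filter on low counts in B-like and 8 in CD8 T-like profiles, and NK-like and pDC-like cells had too few samples for a test. With a replicate block, an alternative that pairs samples by number although the labels state no pairing, 10 of the 75 tests were called.

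**Figure D4:**
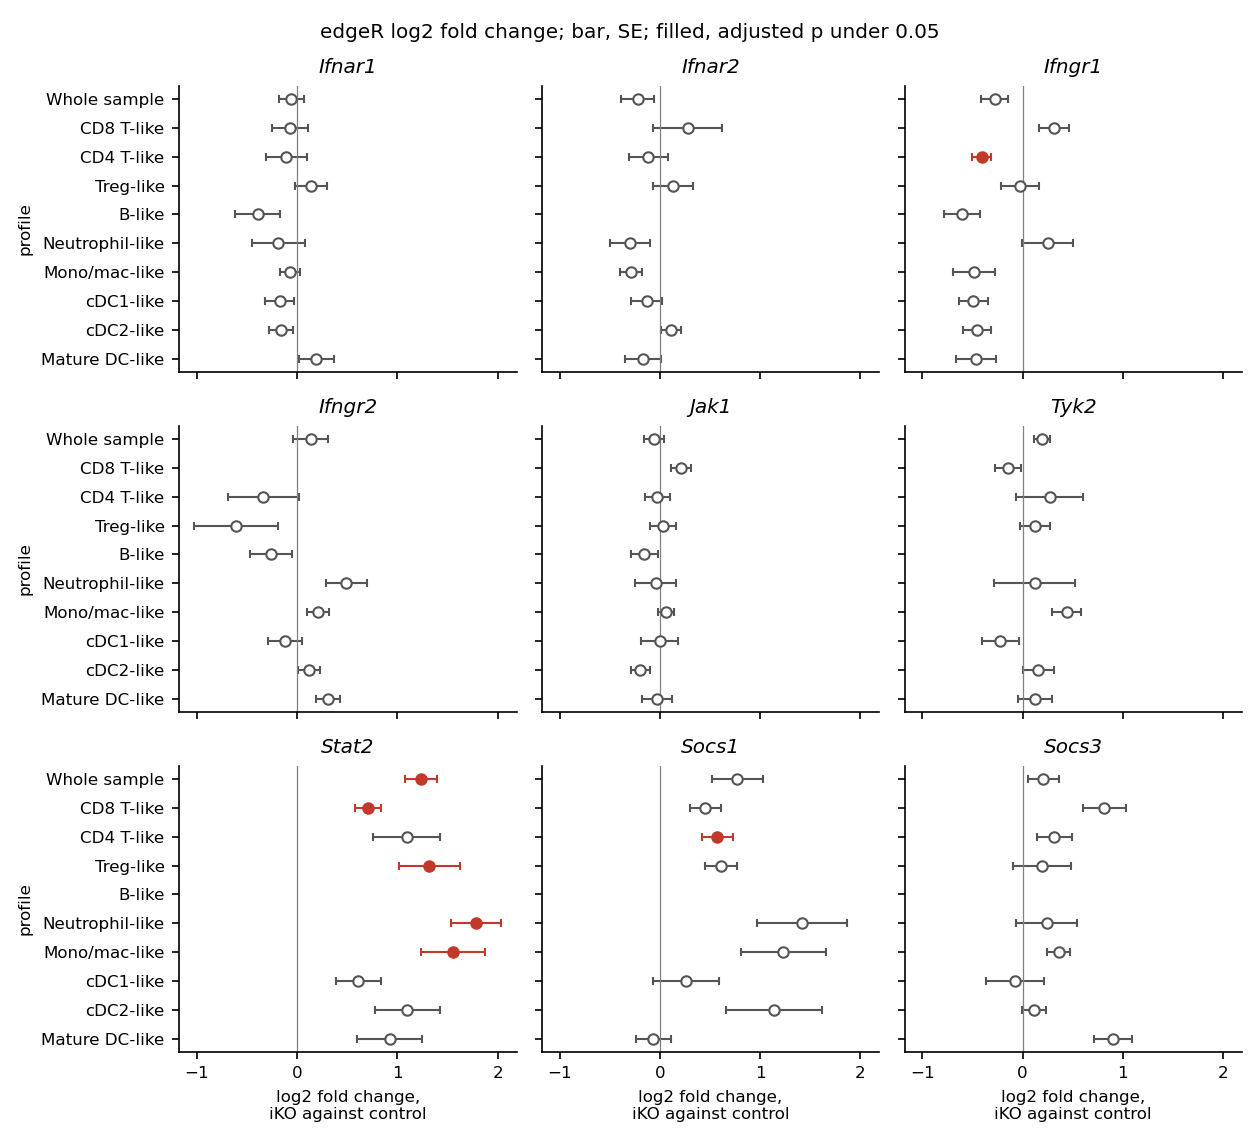
Each panel is a gene; the horizontal axis is the edgeR log2 fold change of iKO against control and the bar its SE, with profiles on the vertical axis and filled red points for an adjusted p under 0.05. Stat2 lies to the right of 0 in every profile tested, Jak1 lies between -0.20 and 0.21 in every class, and genes missing from a profile did not pass the filter on low counts.

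Stat2 was higher in iKO. In whole samples it stood at 94.4, 89.6, 59.3 and 65.8 CPM in iKO samples 1 to 4 and at 35.8, 32.7, 36.0 and 27.1 CPM in control samples 1 to 4. Every iKO sample lay above every control sample, as did 8.41% of all genes, and iKO samples 1 and 2 were the highest. The log2 fold change was 1.24 ± 0.16 (SE; edgeR adjusted p = 0.00744; 77.3 ± 17.3 against 32.9 ± 4.13 CPM, SD, n = 4 each). In whole-sample profiles a change in the number of cells of a type and a change of RNA per cell cannot be told apart, so the same comparison was made within classes.

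Within monocyte/macrophage-like cells Stat2 stood at 162, 168, 74.5 and 79.3 CPM in iKO and at 51.5, 39.4, 41.5 and 31.1 CPM in control samples. The groups did not overlap (higher without overlap for 15.2% of genes), and iKO samples 1 and 2 were the highest. The log2 fold change was 1.56 ± 0.32 (SE, edgeR adjusted p = 0.0159), and without control sample 4 the adjusted p was 0.0537. The clusters that made up this class differed in share between the pooled cells of each group. Of the 5811 iKO cells, iKO samples 1 and 2 gave 1864 and 2207, so the iKO shares are mostly theirs. Clusters 7, 8, 17 and 19 held 15.7%, 14.6%, 11.7% and 11.7% of the class in iKO. They were led by Vcan and Fcgr1, by Ace and Ear2, by Ccl12 and Ccl7, and by Cxcl9 and Fcgr1. Clusters 1 and 4, led by Vcan and Lyz2 and by Arg1 and Mmp12, held 25.8% and 23.8% of the class in control. In 7 clusters with at least 3 samples per group the iKO mean of Stat2 was higher in 7, and the groups did not overlap in 4. In cluster 10, led by Chil3 and Lyz2, iKO samples held 117 to 219.8 CPM of Stat2 and control samples 40.6 to 75.3 CPM. With the clusters weighted equally, which left 5 samples, the log2 difference was 1.22 and limma's adjusted p was 0.110.

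In neutrophil-like cells Stat2 stood at 86.7, 81.1, 62.2 and 55.5 CPM in iKO and at 12.5, 30.3, 26.0 and 21.6 CPM in control. All iKO samples lay above all control samples (2.69% of genes did so), and the log2 difference, 1.79 ± 0.25 (SE, edgeR adjusted p = 0.00264), kept its call when any 1 sample was left out. The class holds 472 iKO and 1399 control cells, and its larger part in both genotypes is cluster 0 (54.9% and 61.4% of these pooled cells). In cluster 0 the groups met, at 25.37 to 58.7 CPM of Stat2 in iKO and 10.3 to 25.40 CPM in control. In cluster 15, its other cluster, iKO samples held 71.3 to 125 CPM of Stat2 and control samples 15.6 to 46.4 CPM.

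In CD8 T-like cells Stat2 stood at 23.2, 29.1, 27.6 and 27.1 CPM in iKO and at 16.2, 18.2, 17.6 and 14.6 CPM in control, without overlap (6.03% of genes higher without overlap). Here iKO samples 1 and 2 did not stand above samples 3 and 4. This was a log2 fold change of 0.71 ± 0.13 (SE, edgeR adjusted p = 0.00843). The call was lost when cells were thinned to 2000 UMIs (log2 fold change 0.28, adjusted p = 0.676), when iKO sample 2 was left out (0.63, adjusted p = 0.0557) and in the only cluster with at least 20 cells in all 8 samples (cluster 18, led by Cd8b1 and Gzmk; log2 difference 0.45, limma adjusted p = 0.615). The clusters differed here too. Of the pooled cells of each group, cluster 5, led by Cd3g and Cd8b1, held 23.9% in iKO and 8.54% in control. Cluster 18 held 12.3% and 29.2%. Samples 1 and 2 gave 1217 and 2419 of the 3965 iKO cells, so the iKO shares are mostly theirs. The sums of monocyte/macrophage markers given above were also higher in the iKO CD8 T-like profiles, and their part in the Stat2 difference was not tested.

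In Treg-like cells Stat2 stood at 68.6, 85.7, 44.8 and 32.9 CPM in iKO and at 29.3, 22.3, 27.7 and 11.5 CPM in control, again without overlap (5.40% of genes). The log2 fold change was 1.32 ± 0.31 (SE, edgeR adjusted p = 0.0476), and the call was lost when any of iKO samples 1 and 2 and control samples 2, 3 and 4 was left out (adjusted p up to 0.151). The remaining classes gave values in the same direction that did not pass. In CD4 T-like cells the log2 fold change was 1.09 ± 0.33 (adjusted p = 0.0870, and 0.0351 with the replicate block), in cDC2-like cells 1.10 ± 0.32 (0.125, and 0.00914 with the block), in mature DC-like cells 0.92 ± 0.32 (0.267) and in cDC1-like cells 0.61 ± 0.22 (0.240; SE, edgeR). Stat2 was not tested in B-like cells, where it stood at 20.8 to 66.2 CPM in iKO and 23.5 to 41.9 CPM in control. In cDC2-like cells iKO samples 1 and 2 held 137 and 112 CPM and samples 3 and 4 held 46.9 and 56.4 CPM, against 28.9 to 51.7 CPM in control.

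**Figure D5:**
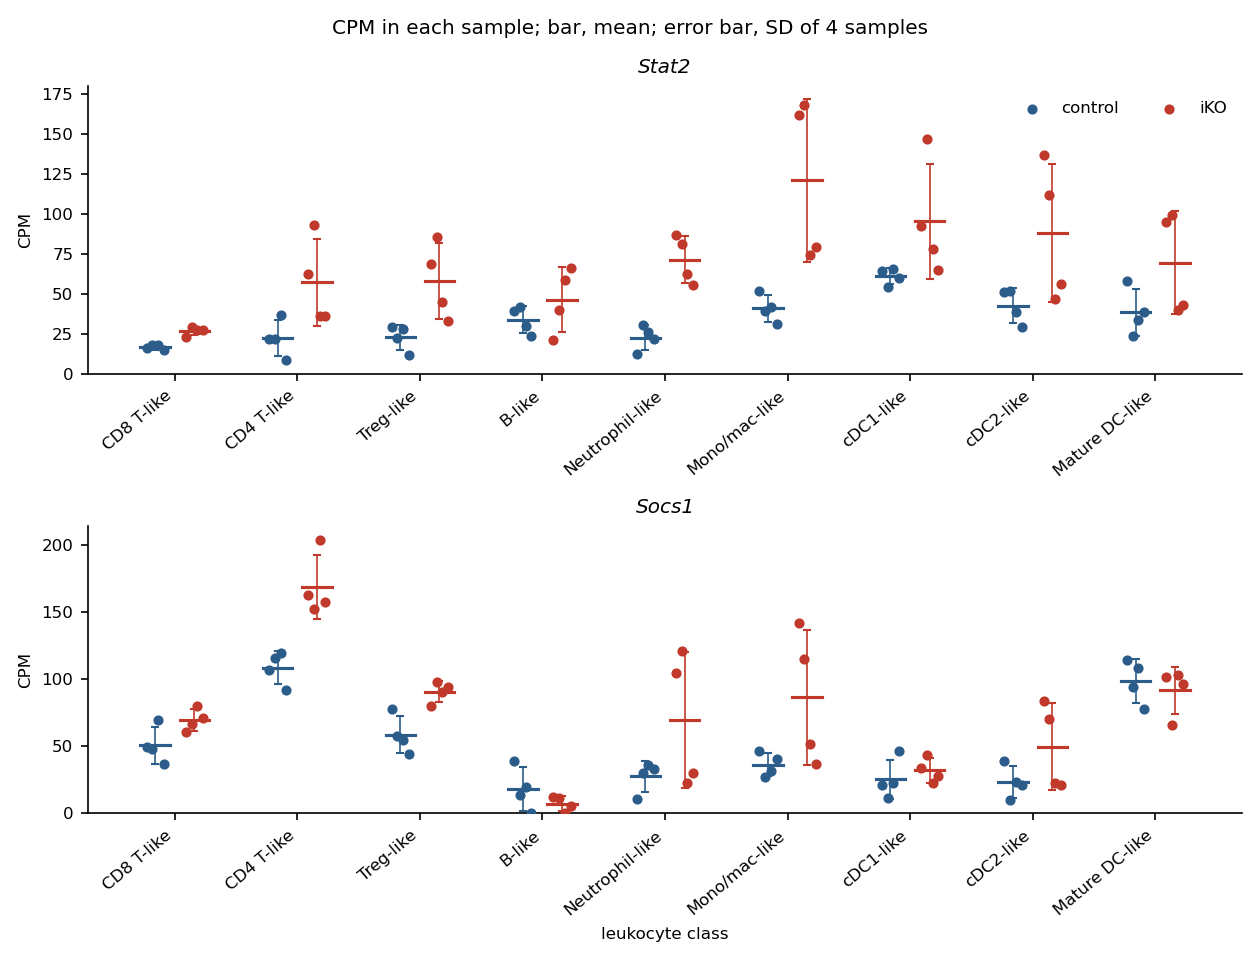
CPM of Stat2 (top) and Socs1 (bottom) in each of the 4 samples per genotype (points; blue, control; red, iKO) by class; bars are means and error bars SD of 4 samples. In monocyte/macrophage-like cells iKO samples 1 and 2 stand at 162 and 168 CPM for Stat2 and at 142 and 115 CPM for Socs1, above iKO samples 3 and 4.

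Other JAK, STAT and ISGF3 genes were read from a list. Irf9 was called higher in whole samples (log2 fold change 0.50 ± 0.07, adjusted p = 0.0104), monocyte/macrophage-like cells (0.60 ± 0.14) and CD8 T-like cells (1.20 ± 0.15; SE, edgeR). Jak2, the kinase paired with JAK1 on the interferon gamma receptor, was called in no profile. In cDC1-like cells the 4 iKO samples averaged 91.9 ± 7.73 CPM and the 4 control samples 125 ± 15.8 CPM (SD), with an edgeR adjusted p of 0.115. Jak3, Stat3, Stat4, Stat5a, Stat5b and Stat6 were called in no profile.

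Socs1 was called higher in iKO in CD4 T-like cells. It stood there at 163, 152, 204 and 157 CPM in iKO and at 107, 116, 119.7 and 91.8 CPM in control. The groups did not overlap (4.78% of genes higher without overlap), and the log2 fold change was 0.57 ± 0.15 (SE, edgeR adjusted p = 0.0455). The call was lost whichever sample was left out (adjusted p 0.0580 to 0.154, log2 fold change 0.48 to 0.63). In Treg-like cells Socs1 stood at 79.8, 98.2, 90.4 and 94.2 CPM in iKO and at 77.6, 57.4, 54.7 and 44.5 CPM in control. These groups did not overlap either (5.40% of genes higher without overlap), but the test did not pass (log2 fold change 0.61 ± 0.16, adjusted p = 0.0772).

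In 3 myeloid classes Socs1 split the iKO group. Monocyte/macrophage-like cells held 142, 115, 51.6 and 36.9 CPM in iKO samples 1 to 4 and 46.1, 27.0, 31.4 and 40.8 CPM in control samples 1 to 4. iKO samples 1 and 2 stood above all others and iKO sample 4 lay within the control range. Neutrophil-like cells repeated this, at 105, 121, 22.6 and 30.4 CPM against 10.7, 30.3, 36.2 and 32.9 CPM, and so did cDC2-like cells, at 83.8, 70.6, 22.7 and 21.3 CPM against 39.4, 10.0, 23.4 and 21.2 CPM. The log2 fold changes did not pass: 1.23 ± 0.42 (adjusted p = 0.0809), 1.42 ± 0.45 (0.231) and 1.14 ± 0.48 (0.251; SE, edgeR). Cluster 7, which had no control sample with 20 cells, held the highest mean Socs1 of the monocyte/macrophage-like clusters with values, 146 to 279.5 CPM over the 4 iKO samples. No iKO sample stood above all control samples in cDC1-like cells, at 22.8 to 43.9 CPM against 11.6 to 46.2 CPM, or in mature DC-like cells, at 65.8 to 103 CPM against 77.9 to 115 CPM. iKO samples 1 and 2 also had the highest Ifng and CD8 T-like shares, whose part in the Socs1 levels was not tested. Control sample 1, next in Ifng at 152 CPM, had the highest Socs1 of the control samples in monocyte/macrophage-like and cDC2-like cells (46.1 and 39.4 CPM). In neutrophil-like cells it had the lowest, at 10.7 CPM.

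Socs3 was called in no profile. Unadjusted, its p was under 0.05 in 3 classes, all with iKO higher. Such a p, in either direction, was held by 911 of 7123 genes in mature DC-like and 1839 of 9177 in CD8 T-like profiles. In monocyte/macrophage-like profiles 3550 of 11378 genes held it. In mature DC-like cells Socs3 stood at 151, 111, 120.2 and 131 CPM in iKO and at 62.9, 52.2, 104 and 60.8 CPM in control, without overlap (2.58% of genes). In that class the log2 fold change was 0.90 ± 0.19 (SE, edgeR adjusted p = 0.0919). For CD8 T-like cells the value was 0.82 ± 0.22 with an adjusted p of 0.0508, at 32.8, 24.8, 46.9 and 38.1 CPM against 16.6, 15.9, 26.2 and 24.0 CPM. With the replicate block the adjusted p was 0.00413, and Socs1 in the same cells moved from 0.122 to 0.0491. These blocked values depend on a pairing that the labels do not state. In monocyte/macrophage-like cells Socs3 was 0.36 ± 0.12 (adjusted p = 0.0687), at 302 to 344 CPM in iKO and 199 to 295 CPM in control.

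Of 15 other negative regulators, Usp18, which encodes a protease that blocks IFNAR2, was called higher in whole samples and in 7 classes, that is all those tested except B-like and mature DC-like cells. In CD4 T-like cells Usp18 rose from 4.18 ± 4.05 to 98.2 ± 54.2 CPM (SD, n = 4 each; log2 fold change 4.41 ± 0.47, SE). Ptpn6, which encodes the phosphatase SHP-1, rose in whole samples (0.73 ± 0.14) and in monocyte/macrophage-like cells (0.81 ± 0.15), and Ptpn1 rose in the latter (0.35 ± 0.10). In CD8 T-like cells Cish rose (0.53 ± 0.11) and Ptpn11, which encodes SHP-2, fell by 0.62 on the log2 scale.

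Ifngr1 was the only member called lower. In CD4 T-like cells it stood at 769, 647, 754 and 739.7 CPM in iKO and at 884, 979, 925 and 1023 CPM in control, without overlap (3.68% of genes lower without overlap). The fitted log2 fold change was -0.41 ± 0.10 (SE, edgeR adjusted p = 0.0219). The call was lost when iKO sample 2 or 4 or control sample 2 or 4 was left out (adjusted p up to 0.114), and with a per-cell marker gate in place of clusters (-0.26, adjusted p = 0.438). In the same cells the sums of the 10 monocyte/macrophage markers were 866 to 1180 CPM in iKO and 835 to 931 CPM in control. Those of the 6 neutrophil markers were 147 to 225 CPM in iKO and 516 to 567 CPM in control, and those of 3 platelet markers, with Itga2b at 0, were 3.13 to 32.6 and 43.7 to 65.7 CPM. Their part in the lower Ifngr1 was not tested.

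In 5 other classes Ifngr1 was lower in iKO at an unadjusted p under 0.05 and did not pass. In monocyte/macrophage-like profiles 3550 of 11378 genes had such a p in either direction. The counts for the other classes are given above. In B-like cells Ifngr1 stood at 74.9, 62.4, 67.9 and 82.8 CPM in iKO and at 106, 133, 115 and 117 CPM in control, without overlap (4.00% of genes). This is a log2 fold change of -0.61 ± 0.18 (SE, edgeR adjusted p = 0.0611). The others were cDC1-like (-0.49, adjusted p = 0.119), monocyte/macrophage-like (-0.48, 0.150), mature DC-like (-0.47, 0.365) and cDC2-like cells (-0.46, 0.132). In cDC2-like cells all iKO samples, at 193 to 279 CPM, lay under all control samples, at 303 to 414 CPM, as did 5.16% of genes. In CD8 T-like cells the sign was the other way, 0.32 ± 0.15 (adjusted p = 0.273), with 280.0, 276, 464 and 394 CPM in iKO and 261, 318, 268 and 313 CPM in control. iKO samples 3 and 4 were the highest there and samples 1 and 2 lay within the control range. In cluster 18, the only CD8 T-like cluster that could be compared, Ifngr1 averaged 662 CPM in iKO and 667 CPM in control, so the opposite sign was not seen there. That cluster, the highest of the class in Ifngr1, held 12.3% of its pooled cells in iKO, which came mostly from samples 1 and 2, and 29.2% in control. iKO samples 3 and 4 gave only 127 and 202 of the 3965 iKO cells, so the pooled share does not describe them.

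Whether the genotype effect itself differed between classes was tested for 3 pairs of classes with an interaction term. Of 9 members, 1 was called in 1 pair, Ifngr1 in B-like against CD8 T-like cells, where 0.607% of the 9064 genes were called. The difference of its effects was -0.98 ± 0.22 on the log2 scale (SE, edgeR adjusted p = 0.0192). Per sample, the log2 ratio of the B-like to the CD8 T-like level lay between -2.76 and -1.89 in iKO samples, and between -1.41 and -1.22 in control. An exact two-sided permutation of genotype over samples gave p = 0.0286, the smallest that 4 against 4 allows, and 0.257 after adjustment over 27 tests. The call was lost without iKO sample 3, control sample 2 or control sample 3, and with the per-cell gate the difference was -0.19. It uses the whole CD8 T-like class, whose clusters differ in Ifngr1 and in their shares of each group's pooled cells, as given above. For monocyte/macrophage-like set against CD8 T-like cells, as CD8 T-like minus the other (0.722% of genes called) the Ifngr1 difference was 0.86 ± 0.19 with an adjusted p of 0.0688 and the Stat2 difference was -0.75 ± 0.32 with 0.293 (SE, edgeR). For neutrophil-like against monocyte/macrophage-like cells (0.105% of genes called) no member had an adjusted p under 0.55.

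The other receptor chains and the kinases did not pass in any profile. Ifngr2 had log2 fold changes from -0.61 in Treg-like to 0.49 in neutrophil-like cells, with a smallest adjusted p of 0.220. In neutrophil-like cells its values did not overlap (2.69% of genes higher without overlap), at 149.5, 141, 122 and 137 CPM in iKO and 121, 81.5, 100.4 and 119.6 CPM in control. In B-like cells Ifngr2 was lower without overlap, at 45.4 to 55.2 CPM against 60.04 to 72.7 CPM, and so was Ifnar1 (4.00% of genes). Ifnar1 ranged from -0.39 in B-like to 0.19 in mature DC-like cells, and Ifnar2 from -0.30 in neutrophil-like to 0.28 in CD8 T-like cells. Ifnar2 in monocyte/macrophage-like cells was lower without overlap (6.42% of genes), at 135 to 144 CPM in iKO and 147 to 198 CPM in control, with an adjusted p of 0.105. Jak1 had the narrowest range, from -0.20 in cDC2-like to 0.21 in CD8 T-like cells, and no class separated its groups. Tyk2 ranged from -0.22 in cDC1-like to 0.44 in monocyte/macrophage-like cells. There it stood at 33.7, 31.5, 29.1 and 29.2 CPM in iKO and at 27.1, 16.03, 23.5 and 21.6 CPM in control, with an adjusted p of 0.0734. These groups did not overlap, as for 15.2% of genes higher in iKO.

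A list of 18 genes for chains of receptors that use JAK1 or TYK2 was read, without regard to which kinase each chain itself binds. Of these, 1 of 16 tested was called in whole samples, Il10ra (log2 fold change 0.59 ± 0.12, SE, edgeR adjusted p = 0.0445). In monocyte/macrophage-like cells 4 of 15 were higher: Il2rg, the common gamma chain (0.94 ± 0.23), Il21r (0.88 ± 0.24), Il12rb2 (0.80 ± 0.23) and Il10ra (0.58 ± 0.14). In CD4 T-like cells Il2rg rose (0.45 ± 0.11) and Il7r fell by 0.67. In CD8 T-like cells Il12rb1 rose (0.92 ± 0.23). The list's median log2 fold change was 0.21 in monocyte/macrophage-like cells, against 0.00 for all genes tested there.

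Targets of the pathway were read from 3 lists. Of 28 type I interferon targets, 27 were called higher and 0 lower in whole samples, with a median log2 fold change of 1.64 against -0.01 for all genes. Counts of 26 of 27 in CD8 T-like, 26 of 28 in monocyte/macrophage-like, 24 of 27 in neutrophil-like and 23 of 24 in CD4 T-like cells were called higher, and 0 lower. The remaining classes had 12 of 13 in B-like, 20 of 26 in Treg-like, 20 of 25 in cDC1-like and 14 of 28 in cDC2-like cells. Irf7, a transcription factor of the interferon response, rose from 73.6 to 485 CPM in whole samples (log2 fold change 2.73 ± 0.21, SE). Of the interferon gamma targets 2 of 19 were called higher in whole samples, Irgm1 (1.55 ± 0.24) and Tapbp (0.77 ± 0.13). In classes the counts were 13 of 18 in CD8 T-like, 9 of 19 in monocyte/macrophage-like, 7 of 16 in neutrophil-like and 6 of 17 in CD4 T-like cells, with 0 lower. They were 5 of 8 in B-like, 2 of 17 in Treg-like, 1 of 18 in cDC1-like and 0 of 19 in cDC2-like cells. Cxcl10, which type I interferons also induce, rose in CD4 T-like (3.07 ± 0.52), monocyte/macrophage-like (1.65 ± 0.45) and CD8 T-like cells (1.96 ± 0.27). In mature DC-like cells 2 of 25 type I and 0 of 19 interferon gamma targets were called, where 7 of 7123 genes were called at all, although the lists' medians were 1.63 and 0.94. Of the STAT3 targets and activating cytokines, 1 of 13 was higher, Bcl3 (0.68 ± 0.19), and 1 lower, Fos (-0.42 ± 0.11), in monocyte/macrophage-like cells, and none was called in any other profile.

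The genes most like each member were taken as the 3 with the highest Pearson correlation of log2(CPM + 1) over the 80 profiles of class and sample, among 7857 genes. For Stat2 these were Irf7 (r = 0.79), Tor3a (0.78) and Ifi35 (0.73). For Ifngr2 they were Zfp36 (0.93), Spi1, the myeloid and B cell transcription factor PU.1 (0.91), and Prkcd (0.90). Socs3 was most like Csrnp1 (0.87), Ifitm2 (0.87) and Fos (0.85), and Socs1 most like Atp10a (0.74), F730043M19Rik (0.73) and Adora2a (0.71). Ifnar2 was most like Grn (0.88), Xbp1 (0.88) and Eepd1 (0.87). Ifngr1 was most like Ptpn22 (0.84), Jak1 like Vps37b (0.90), and Tyk2 like Tbca (0.86) and the immunoproteasome gene Psmb8 (0.85). Ifnar1 had the weakest likeness, to Hivep3 (0.71). No member was among the 3 genes most like another member. The profiles share samples, libraries and depth, so these values describe likeness only.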

How the data were processed

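The matrices hold raw UMI counts per gene and cell, deposited by the authors as 1 matrix per hashtagged sample; they were made with Cell Ranger 7.1.0, per the file headers, on GRCm39, per the submitters' processing notes. Barcodes with at least 300 genes and at most 10% mitochondrial counts were kept, and 438 (1.95%) with a Scrublet score over 0.25 were removed as doublets. The 4 hashtag features and 92 spike-ins were left out of all totals. Cells were clustered with scanpy 1.11.5 (2000 variable genes without the members and list genes, 30 components, 20 neighbours, Leiden resolution 2) and clusters were named from marker lists. A per-cell marker gate named 20210 of the 22052 kept cells. Among cells named both by it and by the clusters, the class was the same for 93.3%. UMIs were summed per class and sample (at least 20 cells) and tested with edgeR 4.0.16 (R 4.3.3; TMM, low-count filter, quasi-likelihood test, Benjamini-Hochberg adjustment over all genes of a profile), where at least 3 samples per group were available. Equal-weight cluster means used limma 3.58.1, and orders and per-sample differences used log2(CPM + 1).

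The members and gene lists were chosen with earlier results of these data known. All 9 members are named, with at most 4 called genes of largest change per list and profile, Jak2 and Irf9 always, and the 3 genes most like each member; 1 gene of these lists is not reported here. Ifna5, Ifne, Ifnl2 and Ifnl3 were not analysed here. On simulated counts with 200 genes changed 4-fold, the test recovered 97% in whole samples (13459 genes) and 86.5% in B-like profiles (3150 genes), the lowest of the 10 profiles. All members changed less than 4-fold: their largest log2 fold change was 1.79, for Stat2 in neutrophil-like cells. Recovery of changes smaller than 4-fold was not tested. Deviations of same-numbered samples of the 2 groups correlated at 0.495, 0.235, 0.148 and 0.523. However, iKO sample 2 correlated more with control sample 1 (0.573), and iKO sample 3 more with control sample 4 (0.338). The labels name no shared litter, batch or day, so a pairing by number is not established. The main test uses no pairing. The replicate block was chosen from these same data and is given only as an alternative, where it changes a call. Alternatives were DESeq2 1.42.0, no low-count filter, stricter cells, doublets kept, thinning to 2000 UMIs (21399 cells left), the marker gate, at least 50 cells, equal cluster weights, a pseudocount of 10 and each sample left out.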

Additional observations from a re-analysis of the deposited data

Results flagged for a closer look

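In 7 of 180 groups of 4 samples (3.89%) 1 sample lay far from the other 3, where chance flags about 1 in 20 groups. Ifnar1 stood at 106 CPM in monocyte/macrophage-like cells of iKO sample 4 (others 96.8 to 98.1) and at 84.1 CPM in cDC2-like cells of control sample 1 (others 71.1 to 72.1). Ifnar2 in iKO sample 2 stood at 70.3 CPM in mature DC-like cells (others 44.5 to 48.1) and at 126 CPM in cDC2-like cells (others 106 to 107). Tyk2 stood at 14.9 CPM in neutrophil-like cells of control sample 1 (others 7.19 to 8.37) and at 73.2 CPM in cDC1-like cells of iKO sample 4 (others 47.7 to 50.8). Socs3 stood at 191 CPM in CD4 T-like cells of iKO sample 1 (others 126 to 134).

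The genotype effect on Ifngr1 differed between B-like and CD8 T-like cells by -0.98 on the log2 scale, by the edgeR interaction term given in the report. The exact permutation gave an adjusted p of 0.257. The call was lost with the per-cell gate and when any of 3 samples was left out.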

How the results depend on the processing

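In whole samples Stat2 kept its call in every setting run, and DESeq2's Wald test called 2 members in place of 1. Of the 75 tests in classes, 6 were called, against 10 with the Wald test, 17 without a low-count filter, 10 with the replicate block and 3 with at least 50 cells. With 1 sample left out the count ran from 2 (without control sample 4) to 8, and it was 3 without iKO sample 2 or control sample 2. The replicate block added Stat2 in CD4 T-like and cDC2-like cells and Socs1 and Socs3 in CD8 T-like cells and changed no other call. Those added calls rest on a pairing that the labels do not state. In monocyte/macrophage-like and CD8 T-like cells 2 tests were called, both of Stat2, and 0 with clusters at equal weight. The number of members whose effect differed between classes was 1, against 2 without a low-count filter, 0 with the per-cell gate and 0 to 1 with 1 sample left out. No neighbour pair of the order passed in any of the settings run. Ifnar1 in whole samples changed sign without control sample 4 (log2 fold change 0.044; range over left-out samples -0.14 to 0.044). Apart from what the settings themselves change (fewer cells, samples or genes), the cause was not tested. Counting the unnamed cluster led by Pf4 as monocyte/macrophage-like, an alternative chosen after seeing the data, gave 6 calls in classes. Thinning gave no value for Stat2 in Treg-like, CD4 T-like, cDC1-like and mature DC-like cells, for Socs1 in cDC2-like or Socs3 in CD8 T-like cells. Low depth limits members in small classes, such as Ifngr2 in NK-like cells (9 UMIs) and Socs1 in pDC-like cells (23 UMIs).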
